A study of Mus musculus with 24 samples.

Results

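The *Zscan4* and *Tcstv* genes were followed as 7 members in mouse embryonic stem cell (ESC) RNA-seq: *Zscan4a*, *Zscan4b*, *Zscan4c*, *Zscan4d*, *Zscan4f*, *Tcstv1* and *Tcstv3*. They are 7 of 22926 gene symbols in the tables, chosen by name after their levels in these same libraries were known, so their own levels and fold changes are given as a description without a test. The symbol search found no other *Zscan4* or *Tcstv* symbol in the tables. Each member was read singly and as a family sum (*Zscan4* over 5 genes, *Tcstv* over 2), because reads may be divided between near-identical genes. The 24 libraries come from clones of 1 parental ESC line of 129/SVj origin that carries eGFP at *Pou5f1*, grown with leukemia inhibitory factor (LIF; D0) or collected on day 6 after its withdrawal (D6). At each day there were 3 WT clones, 3 *Tet1*-/- clones, 2 *Tet2*-/- clones, 2 DKO clones (*Tet1* and *Tet2* edited) and 2 TKO clones (*Tet1*, *Tet2* and *Tet3* edited), with 1 library per clone. The knockouts were made with CRISPR/Cas9 by indels in the *Tet* genes, and every clone, WT included, carries the eGFP allele. A single allele was read for *Tet2* in both *Tet2*-/- clones and for *Tet3* in both TKO clones, so the sequence of the other allele is not known here. The paper also reports loss of protein by Western blot, with blots of Tet1 and Tet2. Clones are numbered here by the replicate number of their D0 library. By their labels, 11 clones were sequenced at both days, *Tet1*-/- clone 2 was sequenced at D0 alone, and a further *Tet1*-/- clone, numbered 4, at D6 alone. A DKO label written without its point at D6 was read as that of clone 2. Clones of 1 line are not separate animals, so the p-values given for other genes measure the spread between clones.

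*Zscan4* genes encode SCAN-domain zinc finger proteins that are switched on briefly when the embryonic genome is activated at the 2-cell stage. In ESC cultures they are expressed in bursts by a rare, transient fraction of cells, the 2C-like cells, together with *Tcstv1* and *Tcstv3* and with genes driven by the MERVL retroviral element. ZSCAN4 is known for lengthening telomeres through recombination, and Tcstv proteins are also linked to telomere maintenance. The transcription factor Dux and the chromatin proteins DPPA2 and DPPA4 activate this state, while TRIM28, RIF1 and Polycomb-type complexes repress it in ESCs. In bulk RNA-seq, fewer 2C-like cells and less RNA per 2C-like cell cannot be told apart.

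The 4 members with a RefSeq promoter in the reference used here (*Zscan4b*, *Zscan4c*, *Zscan4d* and *Zscan4f*) lie on chromosome 7. The 250 bases before 3 of their RefSeq start sites (GRCm38.p6) are shown because they are so alike that the genes are hard to tell apart by sequence. Capitals mark the motif TATAAAA and each CG dinucleotide, the site of DNA methylation on which Tet enzymes act. The windows are chr7:11005495-11005744 on the plus strand (*Zscan4c*), chr7:11166149-11166398 on the minus strand (*Zscan4d*) and chr7:10905051-10905300 on the minus strand (*Zscan4b*).
Zscan4c: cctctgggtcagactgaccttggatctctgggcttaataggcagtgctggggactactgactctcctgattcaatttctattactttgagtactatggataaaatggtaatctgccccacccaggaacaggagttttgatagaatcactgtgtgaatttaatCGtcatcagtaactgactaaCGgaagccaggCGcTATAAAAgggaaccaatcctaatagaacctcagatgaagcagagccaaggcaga
Zscan4d: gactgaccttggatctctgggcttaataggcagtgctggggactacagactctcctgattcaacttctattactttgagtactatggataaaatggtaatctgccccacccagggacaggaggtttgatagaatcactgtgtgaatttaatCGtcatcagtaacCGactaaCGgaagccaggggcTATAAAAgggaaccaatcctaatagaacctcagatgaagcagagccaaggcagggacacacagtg
Zscan4b: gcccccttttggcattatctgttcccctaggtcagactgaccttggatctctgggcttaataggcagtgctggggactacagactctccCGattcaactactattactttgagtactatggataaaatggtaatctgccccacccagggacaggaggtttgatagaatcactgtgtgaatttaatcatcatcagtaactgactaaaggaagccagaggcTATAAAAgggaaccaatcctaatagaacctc
Between pairs of the 4 promoters, identity over the aligned bases ran from 94.7% (*Zscan4b* and *Zscan4c*) to 99.6% (*Zscan4c* and *Zscan4f*). TATAAAA was found in all 4, starting at position -31 in *Zscan4b* and *Zscan4f*, -54 in *Zscan4c* and -65 in *Zscan4d* relative to the start site. On either strand this motif is in 4.98% of 32851 promoters of the same length. *Zscan4b* had 1 CG in the window and the other 3 had 3 each, against a median of 6 over all promoters. GATTNAATC, searched on both strands as the core of the Dux motif, was in none of the 4 windows and in 0.247% of all promoters. A match describes letters in the window, and its absence says nothing about a factor.

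Likeness of the transcripts bears directly on what the counts mean. Cut into 38-base windows, the annotated transcripts of *Zscan4d* (mm9, chr7:11746992-11751497) had 41.3% of 1844 windows that occur once in the mm9 genome. The share was 11.3% of 2153 for *Zscan4c* (chr7:11591071-11595896), 4.76% of 1597 for *Zscan4b* (chr7:11486098-11490399) and 1.69% of 2245 for *Zscan4f* (chr7:11983264-11988090). Over all 24 libraries, *Zscan4d* took 673 of the family's counts (38.3%) and was the highest of the 5 in 15 libraries, while *Zscan4a* took 23.9%, *Zscan4c* 21.8%, *Zscan4b* 8.89% and *Zscan4f* 7.07%. Among the 4 genes with windows, *Zscan4d*, with the largest share of unique sequence, had the most counts in this total, in which DKO libraries weigh most. *Zscan4f*, with the smallest share, had the fewest in the total but more than *Zscan4b* in *Tet2*-/- and TKO at D0 and in *Tet1*-/- and TKO at D6. RefSeq lists *Zscan4a* as a transcribed pseudogene. In the total over all libraries, *Tcstv1* took 48.0% and *Tcstv3* 52.0% of their family's counts, but by group the *Tcstv1* share ran from 25% (7 of 28 counts in *Tet1*-/- and 1 of 4 in *Tet2*-/-, both at D6) to 77.8% (7 of 9 in WT at D6). The split among members is therefore uncertain, and the family sums carry the comparisons.

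Libraries held 21729346 to 37290208 counts at D0 and 18400463 to 34219640 at D6. A library with no count may still hold a level of up to 3 counts, which equals 0.0814 to 0.151 CPM (counts relative to the size of the library) after scaling by TMM, edgeR's trimmed mean of M-values. Members were scarce: the highest count of any member in any library was 134 (*Zscan4d* in DKO clone 1 at D0). *Zscan4b* was at 0 in 5 libraries. Summed pluripotency markers were alike at D0 (4293 to 4793 CPM over all libraries) and were between 760 and 2189 CPM at D6, with all 7 markers detected in every group. Indels need not lower a transcript, so *Tet* RNA does not check the labels: at D0 *Tet1* was at 220 to 431 CPM in WT and at 93.4, 126 and 358 CPM in *Tet1*-/-. *Tet2* was at 87.9 to 93.9 CPM in WT and at 20.9 and 23.2 CPM in *Tet2*-/- at D0, at 55.7 and 22.3 CPM in DKO clones 1 and 2, and at 42.5 and 8.16 CPM in TKO clones 1 and 2, all below WT. At D6 *Tet2* was low everywhere and the edited clones were not all below WT, with 12.3 to 16.0 CPM in WT, 15.9 and 16.6 CPM in *Tet2*-/-, 9.99 and 5.73 CPM in DKO clones 1 and 2, and 16.2 and 10.5 CPM in TKO clones 1 and 2. At D0 *Tet1* was at 373 and 230.5 CPM in DKO clones 1 and 2 and at 568 and 41.7 CPM in TKO clones 1 and 2. At D6 it was at 108 to 125 CPM in WT, 82.4 to 190 CPM in *Tet1*-/-, 157 and 80.8 CPM in DKO clones 1 and 2, and 249 and 57.7 CPM in TKO clones 1 and 2. All intervals on single libraries are exact Poisson intervals and cover counting error only.

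At D0, summed *Zscan4* was highest in DKO and lowest in *Tet2*-/- and TKO. The WT clones 1, 2 and 3 had 65, 110 and 147 *Zscan4* counts, or 2.63, 4.53 and 6.35 CPM (mean 4.50 ± 1.86 SD, n = 3). The *Tet1*-/- clones 1, 2 and 3 had 134, 120 and 119 counts (mean 5.16 ± 0.218 CPM, n = 3), within the WT range. The *Tet2*-/- clones 1 and 2 had 18 and 37 counts (0.768 and 1.08 CPM), below every WT clone. The DKO clones 1 and 2 had 318 and 163 counts (14.1 and 8.02 CPM), above every WT clone. The TKO clones 1 and 2 had 14 and 8 counts (0.585 and 0.330 CPM), the lowest of all at this day. In order of mean CPM the genotypes ran DKO, *Tet1*-/-, WT, *Tet2*-/-, TKO, and of neighbours in that order only *Tet1*-/- and WT overlapped. The fitted log2 fold change of the sum against WT was -2.27 (SE 0.40) in *Tet2*-/-, -3.29 (SE 0.45) in TKO, 0.18 (SE 0.30) in *Tet1*-/- and 1.29 (SE 0.32) in DKO. Left without any 1 library, these fold changes kept their direction in *Tet2*-/-, DKO and TKO; in *Tet1*-/- the value ran from -0.10 to 0.51.

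Summed *Tcstv* was likewise highest in DKO and lowest in *Tet2*-/- and TKO at D0, from fewer counts. WT clones 1, 2 and 3 had 8, 30 and 26 counts, and the *Tet1*-/- clones 1, 2 and 3 had 7, 16 and 17. Both *Tet2*-/- clones (2 and 3 counts) and both TKO clones (4 and 3 counts) lay below the lowest WT clone and near the limit of detection. DKO clone 1 had 54 counts, above WT, but clone 2 had 21 counts, within the WT range. The log2 fold change was -3.31 (SE 0.78) in *Tet2*-/-, -2.58 (SE 0.74) in TKO, -0.69 (SE 0.51) in *Tet1*-/- and 0.94 (SE 0.51) in DKO. Without DKO clone 1 the DKO value was 0.21, and without clone 2 it was 1.42, so clone 1 carried most of it. In order of mean CPM the genotypes ran DKO (1.72), WT (0.893), *Tet1*-/- (0.561), TKO (0.145) and *Tet2*-/- (0.0865), where DKO overlapped WT, WT overlapped *Tet1*-/-, and the last pair lay near the limit of detection. The plot of family levels sets both families side by side.

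**Figure D1:**
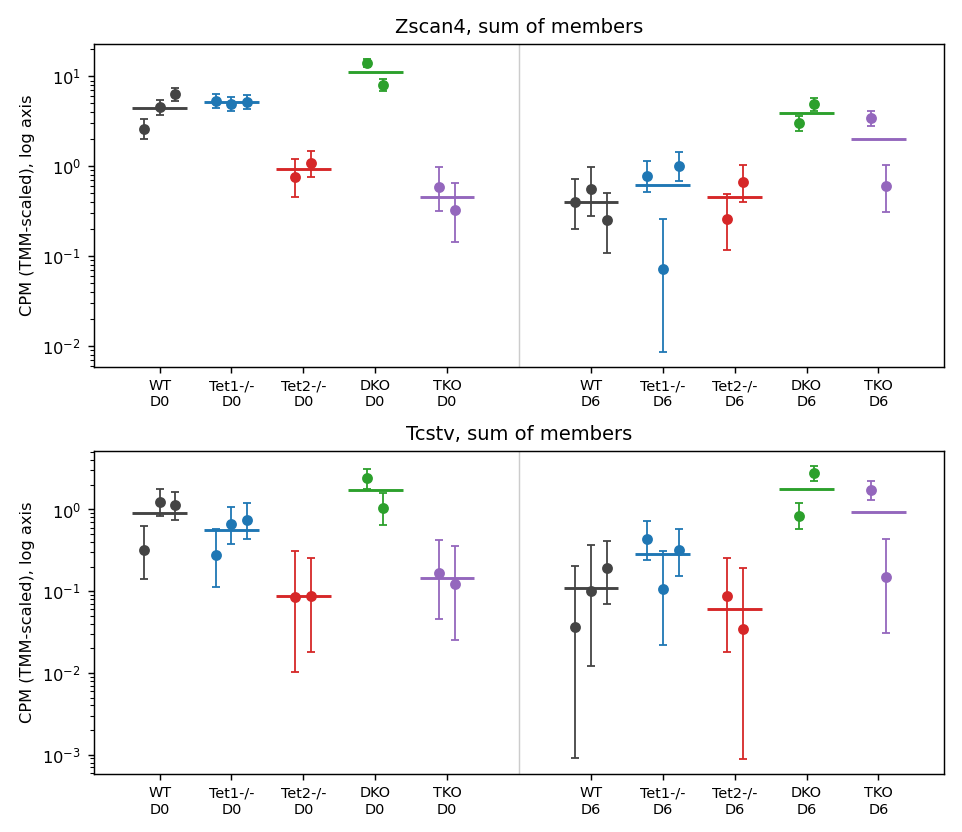
Summed *Zscan4* (upper panel) and summed *Tcstv* (lower panel) in TMM-scaled CPM on a log axis, by genotype and day. Each point is 1 clone with its 95% Poisson interval, and each bar is the mean of a group. At D0 both *Tet2*-/- and both TKO clones lie below all WT clones; at D6 both DKO clones lie above all WT clones, and the TKO clones lie apart at 3.41 and 0.599 CPM of *Zscan4*.

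Single members followed their family sums at D0. In *Tet2*-/-, all 7 members lay below every WT clone, as did 26.4% of the 14456 genes tested at D0, with log2 fold changes from -1.83 (*Zscan4d*) to -3.76 (*Tcstv1*). In TKO, 6 of 7 lay below every WT clone, as did 17.1% of tested genes; the exception was *Tcstv3*, with 1 and 3 counts against 3 to 13 in WT. *Zscan4b* had no count in either TKO library, which makes it at least 3.77-fold lower than the WT mean of 0.472 CPM when each TKO library is set at 3 counts. In DKO, 4 of 7 members lay above every WT clone, as did 22.4% of tested genes, and *Zscan4d* stood highest with 134 and 64 counts against 24, 28 and 44 in WT (log2 fold change 1.75, SE 0.40). In *Tet1*-/- all 7 overlapped WT. These counts were read from the contrasts that picked the members. Over all 14456 genes tested at D0, the share called at an adjusted p-value under 0.05 and over 2-fold was 3.19% in *Tet2*-/-, 3.15% in TKO, 0.00692% in *Tet1*-/- and 0.0346% in DKO.

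At D6, *Zscan4* was scarce in WT and *Tet2*-/- and higher in DKO. WT clones 1, 2 and 3 had 11, 11 and 8 counts of summed *Zscan4* (0.555, 0.399 and 0.255 CPM). *Tet1*-/- clones 1, 4 and 3 had 27, 2 and 32 counts, on both sides of WT, and *Tet2*-/- clones 1 and 2 had 9 and 19. DKO clones 1 and 2 had 149 and 111 counts (4.90 and 3.01 CPM), above every WT clone. The TKO clones differed from each other: clone 1 had 111 counts (3.41 CPM) and clone 2 had 12 (0.599 CPM). The log2 fold change against WT was 3.32 (SE 0.84) in DKO, 2.4 (SE 0.85) in TKO, 0.68 in *Tet1*-/- (0.18 without clone 3, 1.18 without clone 4) and 0.19 in *Tet2*-/- (-0.61 without clone 2, 0.73 without clone 1). Without TKO clone 1 the TKO value was 0.61, and without clone 2 it was 3.13, so 1 library sets its size. Of the TKO clones, clone 1 also had the higher *Tet1* RNA at both days, and the part of this in the results was not tested. In order of mean CPM the genotypes ran DKO, TKO, *Tet1*-/-, *Tet2*-/- and WT, and every pair of neighbours overlapped.

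Summed *Tcstv* at D6 had the same high libraries. WT clones 1, 2 and 3 had 2, 1 and 6 counts, while DKO clones 1 and 2 had 84 and 31 and TKO clones 1 and 2 had 56 and 3. *Tet1*-/- clones 1, 4 and 3 had 15, 3 and 10 counts, and *Tet2*-/- clones 1 and 2 had 3 and 1. The log2 fold change was 3.94 (SE 0.95) in DKO and 3.1 (SE 0.98) in TKO, and the latter was 0.40 without clone 1. *Zscan4b* and *Zscan4f* did not pass the filter on low counts in the D6 fit, so fitted values at D6 exist for 5 of 7 members. Members scarce in WT could pass it through the libraries where they were high. Among these 5, DKO values ran from 2.47 (*Zscan4a*) to 5.15 (*Tcstv3*), the latter set against 0, 0 and 2 counts in WT. Without DKO clone 1 these values were 1.84 and 3.91. By CPM, all 7 members in both DKO clones lay above every WT clone at D6, as did 18.7% of the genes tested at D6, *Zscan4b* and *Zscan4f* included, which had 9 to 23 and 9 to 11 counts in DKO against 0 to 3 and 1 to 3 in WT. In TKO, 3 of 7 lay above every WT clone, as did 17.1% of tested genes. Over all 15435 genes tested at D6, the share called was 0% in *Tet1*-/-, 0% in DKO, 0% in TKO and 14.3% in *Tet2*-/-.

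**Figure D2:**
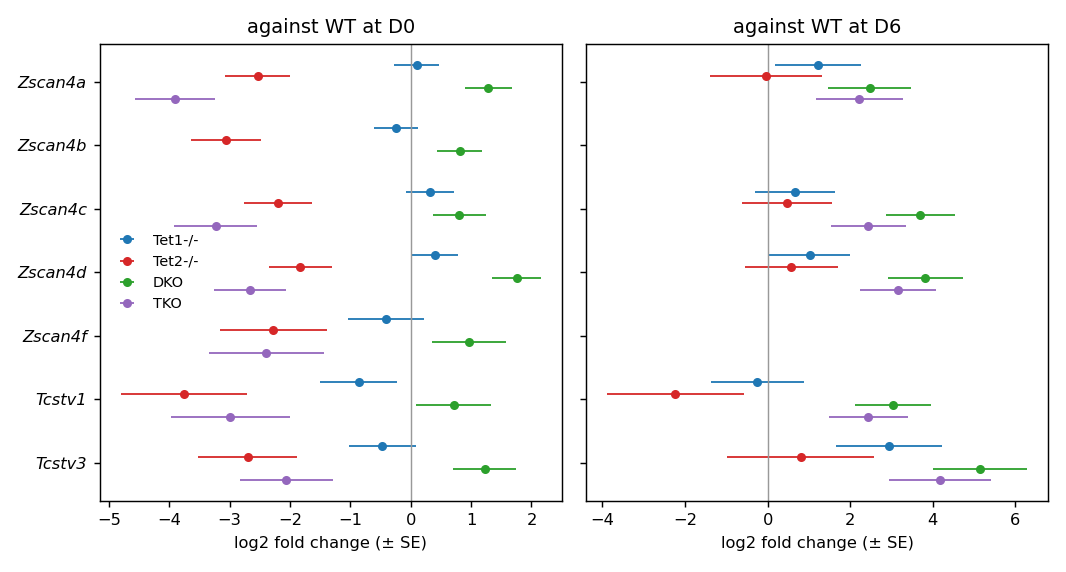
Log2 fold change against WT (± SE) of each member at D0 (left) and D6 (right), by knockout, from edgeR fits. At D0 every *Tet2*-/- and TKO point lies below 0 (*Zscan4b* in TKO, at 0 counts, is not drawn); at D6 DKO and TKO points lie above 0. *Zscan4b* and *Zscan4f* are not drawn at D6 because they did not pass the filter.

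Members also varied more between clones than most genes. The biological coefficient of variation, edgeR's measure of spread between clones of a genotype, was 0.164 (*Zscan4b*) to 0.419 (*Tcstv1*) at D0, where the median over tested genes was 0.135. At D6 it was 0.451 to 0.643 for the 5 members fitted, against a median of 0.179. The lowest of these at D0, *Zscan4b*, exceeded 65.9% of tested genes. Members had few counts and were not set beside genes of like counts, so the part of low counts in this spread was not tested.

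Summed *Zscan4* was lower at D6 than at D0 in 9 of the 11 clones sequenced at both days, and higher in both TKO clones. In WT the sum went from 2.63 to 0.555 CPM in clone 1, from 4.53 to 0.399 CPM in clone 2 and from 6.35 to 0.255 CPM in clone 3. *Tet1*-/- clone 1 went from 5.33 to 0.784 CPM and clone 3 from 5.24 to 1.01 CPM. All 7 members in WT had D6 libraries that lay below every D0 library, as did 34.9% of tested genes. DKO clone 1 went from 14.1 to 4.90 CPM and clone 2 from 8.02 to 3.01 CPM, so DKO libraries at D6 were within the WT range of D0. *Tet2*-/- clone 1 went from 0.768 to 0.259 CPM and clone 2 from 1.08 to 0.662 CPM. TKO clone 1 went from 0.585 to 3.41 CPM, whereas clone 2 had 8 counts at D0 and 12 at D6. The log2 fold change of D6 against D0 was -3.51 in WT, -3.02 in *Tet1*-/-, -1.49 in DKO, -1.04 in *Tet2*-/- and 2.18 in TKO, and without TKO clone 1 at D6 the last was 0.38.

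The log2 fold change of summed *Tcstv* between days was -2.93 (SE 0.85) in WT (-3.69 without clone 3 at D6, -2.50 without clone 2 at D6) and 0.05 (SE 0.74) in DKO, where the counts were 54 and 84 in clone 1 and 21 and 31 in clone 2. In TKO the value was 2.73 (SE 1.00), and it was 0.04 without clone 1 at D6, since clone 2 had 3 counts at both days. *Tet1*-/- (-0.92, SE 0.75) and *Tet2*-/- (-0.44, SE 1.5) had errors close to or larger than the change. Over all 15639 genes tested in 24 libraries, the share called between days was 34% in WT, 31.1% in *Tet1*-/-, 29.2% in DKO, 25.4% in TKO and 19.1% in *Tet2*-/-.

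**Figure D3:**
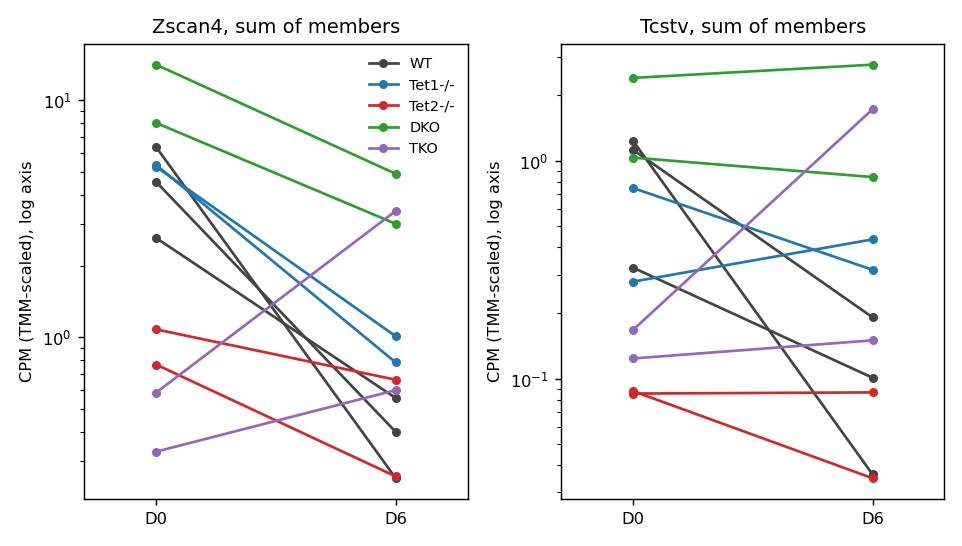
Summed *Zscan4* (left) and summed *Tcstv* (right) in TMM-scaled CPM on a log axis at D0 and D6 for the 11 clones sequenced at both days, 1 line per clone, coloured by genotype. *Zscan4* is lower at D6 in all 3 WT clones, and TKO clone 1 goes from 0.585 to 3.41 CPM.

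The other genes of the 2-cell-like program were tested in the same fits, which share their libraries with the members. Of 67 genes listed, 51 were in the tables and 23 passed the filter at D0 and at D6 each. A scarce gene can pass this filter through the libraries where it is high. The direction of medians and counts of this list may therefore owe something to the filter in every contrast below. At D0, 7 of 23 fell in *Tet2*-/- and none rose, beside 343 of all 14456 tested genes that fell and 118 that rose (3.19% called). The median log2 fold change of the 23 was -1.32, and that of all tested genes -0.01. *Pramef25*, of the PRAME family, fell most (-4.00, SE 0.92, adjusted p = 0.0251), followed by the homeobox gene *Obox6* (-2.83, adjusted p = 0.0266) and *Gm8994* (-2.75, adjusted p = 0.0240). Without WT clone 3 the *Pramef25* value was -3.37, and without *Tet2*-/- clone 2 the remaining library had no count; the *Gm8994* value was -2.26 without *Tet2*-/- clone 1. Those that fell also included *Gm2022*, *Gm5039* and *Gm8300*, relatives of the translation factor gene *Eif1a*. Reads may also be split within the *Eif1a*-like, *Usp17l* and *Pramef* families, so calls of their single genes are uncertain. In TKO, 10 of 23 fell and none rose (median -1.81, all genes 0.02), beside 306 of all 14456 genes that fell and 149 that rose (3.15% called). They were *Gm2016*, *Gm2022*, *Gm5039*, *Gm8300*, *Pramef25*, *Tmem92* and the ubiquitin peptidase genes *Usp17la*, *Usp17lb*, *Usp17lc* and *Usp17le*. *Tmem92*, a membrane protein gene, had a log2 fold change of -3.27 (SE 0.74, adjusted p = 0.0209). That value was -2.34 without TKO clone 2, and without clone 1 the remaining library had no count; the call was lost without TKO clone 2, WT clone 2 or WT clone 3. *Pramef25* and *Usp17lc* had no counts in either TKO library and were at least 2.80-fold and 2.23-fold lower than WT, with each TKO library set at 3 counts; the *Usp17lc* call was lost without WT clone 1 or 3. These counts rest on single clones. In *Tet2*-/-, 0 of 23 passed without clone 1, 0 without clone 2, 0 without WT clone 3 and 3 without WT clone 2, but 12 without WT clone 1 or either TKO clone. In TKO, 2 passed without WT clone 3 and 5 without WT clone 2. In *Tet2*-/- at D0, summed fibroblast markers were 58.5 and 60.4 CPM against 29.4 to 35.9 CPM in WT. Summed neuroectoderm markers were 6.02 and 9.14 CPM against 3.00 to 5.35 CPM. Tested genes of both lists went in both directions, with 0 called. With TKO at D0, summed endoderm markers were 6.31 and 21.6 CPM against 6.34 to 7.55 CPM in WT, and all 6 endoderm markers were detected. At an unadjusted p under 0.05 and over 2-fold, 4 of the 5 tested were higher (274 of all 14456 genes), with 0 called. *Eomes*, on the trophectoderm list and picked out after its values were seen, rose in TKO (1.09, adjusted p = 0.0402). The other trophectoderm gene tested at D0, *Tfap2c*, was lower in TKO (-0.65) and was not called. Summed trophectoderm markers were 58.3 and 58.7 CPM in TKO against 61.7 to 90.8 CPM in WT. The part of these markers in the results was not tested.

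In DKO and *Tet1*-/- at D0, edgeR's test called 0 of the 23. At an unadjusted p under 0.05 and over 2-fold, 14 were higher in DKO (0.962% of all genes) and 1 in *Tet1*-/- (0.816% of all genes), and DESeq2 called 2 in DKO (0.761% of all genes) and 0 in *Tet1*-/- (0.346% of all genes). The median was 1.15 in DKO and 0.17 in *Tet1*-/-. Without either TKO library the DKO count was 8. Summed mesoderm markers at D0 were 10.4 and 13.9 CPM in DKO and 9.35 to 12.3 CPM in *Tet1*-/- against 3.80 to 7.57 CPM in WT; all 5 markers were detected, 0 were called in DKO, 1 of 5 was higher there at an unadjusted p under 0.05 and over 2-fold, and their part in these results was not tested.

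At D6, edgeR's test called 0 of 23 in *Tet1*-/-, DKO and TKO. At an unadjusted p under 0.05 and over 2-fold, 15 were higher in DKO (2.57% of all genes), 18 in TKO (3.27% of all genes) and 0 in *Tet1*-/- (1.52% of all genes). DESeq2 called 6 in DKO (1.2% of all genes), 3 in TKO (3.05% of all genes) and 0 in *Tet1*-/- (0.279% of all genes). Medians were 2.88 in DKO, 2.69 in TKO and 1.16 in *Tet1*-/-, beside -0.01, 0.02 and -0.01 over all genes. Genes scarce in WT could enter this fit through the libraries where they were high. These medians and counts are therefore not independent of the filter, and all genes are mostly less scarce. Summed pluripotency markers at D6 were 760 to 1572 CPM in WT, 1156 and 1178 CPM in DKO, 1532 and 1598 CPM in TKO and 1997 and 2189 CPM in *Tet2*-/-, and summed mesoderm markers were 150 to 548 CPM in WT, 114.5 and 178 CPM in DKO, 72.4 and 238 CPM in TKO and 14.3 and 22.2 CPM in *Tet2*-/-. Summed endoderm markers were 77 to 287 CPM in WT, 67.2 and 83.7 CPM in DKO and 32.3 and 50.4 CPM in TKO. All 5 mesoderm and all 6 endoderm markers were detected in these groups. At an unadjusted p under 0.05 and over 2-fold, 4 of 6 endoderm and 3 of 5 mesoderm markers were lower in TKO (498 of all 15435 genes). In DKO 2 of 6 and 3 of 5 were lower (400 of all 15435 genes). Of these markers 0 were called in either genotype, and their part in these results was not tested. The TKO count under edgeR was 5 without WT clone 2, 3 without *Tet1*-/- clone 4, 2 without *Tet1*-/- clone 3 and 1 without TKO clone 1. In *Tet2*-/- at D6, where 14.3% of all genes passed, only *Sp110*, a nuclear body protein gene (-2.45, SE 0.76, adjusted p = 0.0356), and *Trim43b* (3.12, SE 0.96, adjusted p = 0.0345) passed (2 of 23). They went in opposite directions, and the median was -0.02. Without WT clone 3 or either DKO clone 0 passed, and without WT clone 1 or 2 only 1 did. The values rested on single *Tet2*-/- clones: *Sp110* was at -4.01 without clone 1 and -1.77 without clone 2, and *Trim43b* at 2.22 and 3.63.

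**Figure D4:**
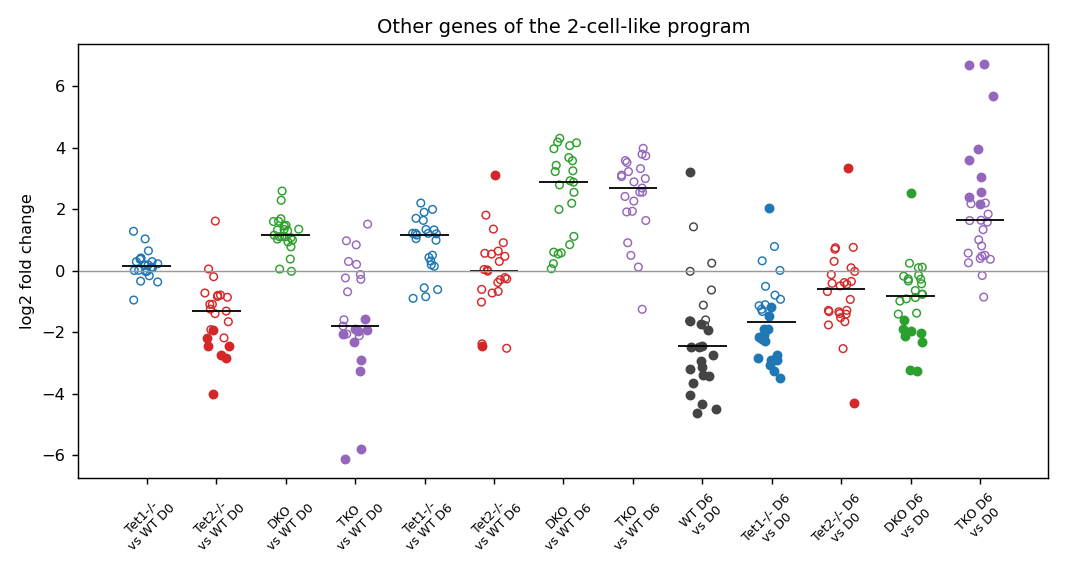
Log2 fold change of each tested gene of the 2-cell-like program other than the members (1 point a gene, 23 in fits of 1 day and 26 between days), with the median as a bar; filled points passed edgeR's test and open points did not. Medians lie below 0 in *Tet2*-/- and TKO against WT at D0, and above 0 in DKO and TKO against WT at D6. TKO is the genotype whose median between days lies above 0. Scarce genes can pass the filter through the libraries where they are high.

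Between days, 26 genes of the program were tested, and each count is set beside the share of all genes called in either direction. Of all 15639 genes, those that fell were 2073 in WT, 1752 in *Tet1*-/-, 1660 in DKO and 1007 in *Tet2*-/-. In WT, 17 fell and 1 rose (all genes 34%, median -2.46), led by *Gm2022* (-4.65, SE 0.77, adjusted p = 3.44e-05), *Gm8300* (-4.52, SE 0.83, adjusted p = 0.000102) and *Pramef25* (-4.34, SE 1.05, adjusted p = 0.00150). Leaving out 1 library, these ran from -5.47 to -4.16, -5.35 to -3.93 and -6.26 to -3.71, so their order is not fixed. The gene that rose was *Sp110* (3.19). In *Tet1*-/-, 15 fell and 1 rose (all genes 31.1%; median -1.68), led by *Gm13119* (-3.49) and *Pramel6* (-3.28). In DKO, 8 fell and 1 rose (all genes 29.2%; median -0.82), led by *Pramel6* (-3.27) and *Pramel7* (-3.23), PRAME-like genes that are also on in naive ESCs; the *Pramel6* value was -2.19 without DKO clone 2 at D0, and 4 passed without DKO clone 1 at D0 and 3 without clone 2 at D6. In *Tet2*-/-, where 19.1% of all genes were called, *Pramel6* fell and *Sp110* rose. Only 1 of the 2 passed without WT clone 2 at either day, WT clone 3 at D0, WT clone 1 at D6, *Tet1*-/- clone 2 or 3 at D0, *Tet2*-/- clone 1 at either day or either DKO clone at either day, and 0 passed without *Tet2*-/- clone 2 at D0. In TKO, 9 rose and 0 fell (median 1.63), while over all 15639 genes 2626 rose and 1350 fell (25.4%). *Sp110* and *Usp17lc* had no counts in TKO at D0 and were at least 3.70-fold and 3.54-fold higher at D6, *Pramef25* at least 1.67-fold, with each D0 library set at 3 counts; without TKO clone 1 at D6 neither *Usp17lc* nor *Pramef25* was called, and *Pramef25* was not without either TKO clone at D0. *Tmem92* had 2 and 0 counts at D0 in clones 1 and 2 and 18 and 3 at D6 (log2 fold change 3.04, SE 0.86, adjusted p = 0.00666). The TKO count was 2 without clone 1 at D6 and 17 without clone 2 at D6.

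Whether the day effect of a knockout differed from that of WT was tested directly as an interaction, a contrast added after the data had been seen. In TKO, 15 of 26 program genes passed, all in the direction of a higher D6 relative to WT (3.58% of all genes tested passed), and 1 did without clone 1 at D6. In *Tet2*-/-, 1 passed, *Gm2022* (4.26, SE 1.25, adjusted p = 0.0292; 8.68% of all genes), and 0 passed without either *Tet2*-/- clone at either day or without WT clone 3 at either day, while 2 passed without WT clone 2 at D0 or either TKO clone at D6. EdgeR's test called 0 in *Tet1*-/- and 0 in DKO, where 0% of all genes passed in each. At an unadjusted p under 0.05 and over 2-fold, 9 program genes were higher in DKO (1.89% of all genes) and 1 in *Tet1*-/- (1.22% of all genes), and DESeq2 called 0 in both (0.128% and 0.0767% of all genes).

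Regulators of the state were measured at far higher counts. Of 33 listed, 32 were tested, and at D0 edgeR's test called 0 in any knockout. Likewise 0 passed at an unadjusted p under 0.05 and over 2-fold, and DESeq2 called 0. These cuts leave out smaller changes. By edgeR's test *Zfp42* was lower in *Tet2*-/- at D0 (-0.89, adjusted p = 0.0105) and *Rif1* in TKO (-0.47, adjusted p = 0.0240). Both were picked out after their values were seen, and other changes under 2-fold are not listed here. *Dppa2* was at 76.3 to 92.1 CPM in WT at D0, and its log2 fold change was -0.18 (SE 0.17) in *Tet2*-/-, -0.16 (SE 0.17) in TKO, 0.21 (SE 0.15) in *Tet1*-/- and 0.27 (SE 0.17) in DKO. *Dppa4* ran from -0.08 (SE 0.12) in TKO to 0.11 (SE 0.12) in DKO. *Dux* did not pass the filter: it had at most 4 counts in any library, and no count in TKO at D0 or in WT or *Tet2*-/- at D6. At D6, 2 of 32 regulators passed in *Tet2*-/- (all genes 14.3%): *Dppa2* and *Dppa4* were higher than in WT (2.80, SE 0.59, adjusted p = 0.00977, and 1.82, SE 0.42, adjusted p = 0.0128). *Tet2*-/- clones 1 and 2 had 58.0 and 54.8 CPM of *Dppa2* against 4.94 to 13.9 CPM in WT, and had 9 and 19 counts of summed *Zscan4*. Neither *Dppa2* nor *Dppa4* passed when either *Tet2*-/- clone was left out, with *Dppa2* at 2.75 and 2.84. In DKO and TKO at D6 *Dppa2* had log2 fold changes of 2.13 (SE 0.59, adjusted p = 0.203) and 1.90 (SE 0.59, adjusted p = 0.102), which did not pass, and *Dppa4* had 1.32 (adjusted p = 0.231) and 1.40 (adjusted p = 0.0968). In TKO both passed without WT clone 2 (2.59 and 1.84) or without *Tet1*-/- clone 4. Between days, 6 of 32 regulators fell in WT (all genes called 34%), 4 in *Tet1*-/- (31.1%), 4 in DKO (29.2%), 3 in TKO (25.4%) and 1 in *Tet2*-/- (19.1%), and 0 rose. *Dppa2* fell in WT (-3.38, SE 0.45, adjusted p = 2.77e-06), *Tet1*-/- (-1.79), DKO (-1.53) and TKO (-1.33). The repressor gene *Trim28* fell in WT, *Tet1*-/- (-1.30), DKO (-1.38) and TKO (-1.25). *Zfp42*, a repressor of the state that also marks naive cells, fell in all 5 genotypes (-1.43 in *Tet2*-/- to -3.49 in WT). Leaving out 1 library ended the *Dppa2* call in TKO (without clone 2 at D0, at -0.997, or without either clone at D6) and in DKO (without clone 2 at either day). The *Zfp42* call in *Tet2*-/- was lost without clone 1 at either day or clone 2 at D6.

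Genes of telomere maintenance and recombination, the process ZSCAN4 is known for, gave 1 called gene at D0. Of 18 tested, 1 fell in *Tet1*-/-, *Tet2*-/- and TKO each (all genes 0.00692%, 3.19% and 3.15%), and it was *Smc1b*, a meiotic cohesin gene. *Smc1b* was at 3.67 to 7.32 CPM in WT, 1.11 to 1.59 CPM in *Tet1*-/-, 0.847 and 0.939 CPM in *Tet2*-/-, 1.69 and 2.17 CPM in DKO and 1.46 and 1.52 CPM in TKO. Its log2 fold change was -2.10 (SE 0.27, adjusted p = 0.0290) in *Tet1*-/-, -2.66 (SE 0.32, adjusted p = 0.00243) in *Tet2*-/- and -1.89 (SE 0.31, adjusted p = 0.00589) in TKO. The *Tet1*-/- call was lost without WT clone 1, any *Tet1*-/- clone or any *Tet2*-/- or DKO clone (values from -2.27 to -1.99), and the *Tet2*-/- call without clone 2 (-2.57). *Smc1b* was thus also low in *Tet1*-/-, where the *Zscan4* sum lay within the WT range. EdgeR's test called 0 of 18 in DKO (0.0346% of all genes). At an unadjusted p under 0.05 and over 2-fold 1 was lower (297 of all 14456 genes), and DESeq2 called 1 (0.761% of all genes). At D6, 1 of 18 passed in *Tet2*-/-, where 14.3% of all genes did, the telomere helicase gene *Rtel1* (1.20, adjusted p = 0.00764), and it did not pass without clone 1 (1.23) or clone 2 (1.17). Between days 3 of 18 fell and 0 rose in WT (all genes called 34%) and in DKO (29.2%). In *Tet1*-/- 2 fell and 1 rose (31.1%), and in *Tet2*-/- 1 fell and 1 rose (19.1%). *Rtel1* fell in WT (-1.77), *Tet1*-/- (-1.16), DKO (-1.31) and TKO (-1.29), and *Tbx3* fell in every genotype. *Tbx3* is also on the list of pluripotency markers, of which 7 of 7 fell in WT. *Dkc1*, of the telomerase complex, fell in WT and in DKO, where it was not called without clone 2 at D6 (-0.97). In *Tet1*-/- *Dkc1* was at -0.996, just short of the 2-fold threshold, and *Rtel1* was not called without clone 4 at D6 (-0.98). In TKO 3 of 18 rose and 3 fell, beside 2626 and 1350 of 15639 genes, so the share that rose was close to that of all genes. The 3 that rose were *Smc1b* (3.21, SE 0.82, adjusted p = 0.00322), the chromatin remodeller gene *Atrx* (1.18) and the meiotic recombinase gene *Dmc1* (1.09). *Dmc1* was not called without TKO clone 2 at D0 (0.78) or TKO clone 1 at D6 (0.94). The third that fell in TKO was *Daxx*, at -1.01 so close to the 2-fold threshold that leaving out any of 9 libraries ended the call (-0.83 without TKO clone 2 at D6). *Dmc1* also rose in *Tet1*-/- (1.14; 0.94, not called, without clone 1 at D0) and *Atrx* in *Tet2*-/- (1.02; 0.97, not called, without clone 1 at either day).

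The *Tcstv* sum moved with the *Zscan4* sum from library to library. Over the 24 libraries, with each day's mean subtracted from log2(CPM + 1), Pearson's r between the sums was 0.88 and Spearman's rho 0.88. With the mean of each genotype and day subtracted, so that only differences between clones of a group remain, r was 0.82 and rho 0.72. Over the D0 libraries alone r was 0.88 and rho 0.78, and over the D6 libraries alone 0.94 and 0.71. These points share clones, depth and scaling, and several lie near the limit of detection.

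**Figure D5:**
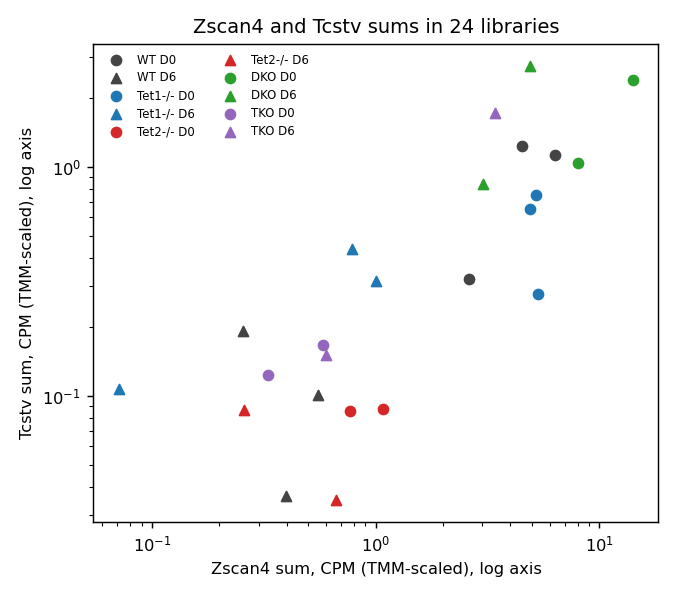
Summed *Tcstv* against summed *Zscan4*, both in TMM-scaled CPM on log axes, 1 point per library (circles D0, triangles D6, coloured by genotype). DKO libraries at both days, TKO clone 1 at D6 and WT clones 2 and 3 at D0 are among those at the upper right, and no *Tet2*-/- library nor TKO library at D0 exceeds 0.167 CPM of *Tcstv*.

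The 10 genes most like summed *Zscan4* by the same measure, among 15632 tested genes, were *Gm8300* (r = 0.96), *Gm13119* (0.95), *Gm5039* (0.95), *Gm5662* (0.95), *Gm8994* (0.93), *Usp17le* (0.93), *Gm2016* (0.93), *Tmem92* (0.93), *Gm2022* (0.92) and *Pramef25* (0.91). All 10 were on the list of the 2-cell-like program. Over the 26 program genes the median r was 0.88, beside -0.01 over all genes. *Usp17le*, picked out after its values were seen, stayed close in each setting: its r was 0.97 over the 12 D0 libraries, 0.96 over the 12 D6 libraries and 0.89 with genotype and day means subtracted. Of the 10 genes, 6 were also among the 10 most alike at D0 alone, 6 at D6 alone and 3 with genotype and day means subtracted.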

How the data were processed

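Polyadenylated RNA, with ERCC spike-ins added, was sequenced from 24 libraries. The authors mapped reads to mm9 with STAR 2.5.1 and deposited counts per RefSeq transcript, whole numbers named by gene symbol, without normalization; whether counting used strand or multiply mapped reads is not given in the sources used here. Each table has 31928 lines for 22926 symbols, and the first line of a symbol was used. Spike-in counts were not used here. Members and lists were chosen with earlier results of these data known.

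Counts were analysed in R 4.3.3 with edgeR 4.0.16: TMM scaling, filterByExpr with a minimum count of 10, and the quasi-likelihood test with 1 coefficient per genotype and day. Separate fits covered D0, D6 and all 24 libraries. Calls needed an adjusted p (Benjamini-Hochberg, over all genes tested) under 0.05 and a log2 fold change over 1 in size; "rose" and "fell" for genes other than members mean called. Family sums replaced the member lines in a refit. Genes named are the members, at most 3 called genes per list and comparison by size, *Dppa2*, *Dppa4* and *Dux*, the genes most like *Zscan4*, and the remaining called genes where a count is spelled out, which were chosen after their values were seen. Not every called gene is reported here by name. The difference of day effects was added after the data had been seen. Likeness was Pearson's r on log2(CPM + 1).

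Alternatives were DESeq2 1.42.0, DESeq2-type size factors (RLE), library totals, no filter, all lines of a symbol summed, leaving out each library, and clone as a replicate block for D6 against D0. Replicate numbers do not mark the same clone at both days in every genotype, so pairing came from the clone label, the same cell line at both days. Deviations of a clone from its group mean at D0 and D6 correlated across genes with r from 0.06 to 0.16 over 11 clones. In *Tet2*-/-, DKO and TKO, with 2 clones each, deviations mirror each other, so both clones share the same r (0.07, 0.09 and 0.16). In *Tet1*-/- the group means came from different sets of clones at D0 and D6.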

Additional observations from a re-analysis of the deposited data

Results flagged for a closer look

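Some day effects differed from that of WT by edgeR's test of the difference itself, a contrast chosen after the data had been seen. In TKO, 15 of 26 genes of the 2-cell-like program, 1 of 32 regulators and 1 of 18 telomere genes passed, where 3.58% of all genes tested did, the last 2 being the same gene, *Rif1* (adjusted p = 0.0173). The program genes included *Gm2022* (adjusted p = 0.00515), *Pramef25* (adjusted p = 0.0104) and *Usp17lc* (adjusted p = 0.0148). Without TKO clone 1 at D6, *Rif1* was at 0.98. In TKO *Rif1* was also lower than in WT at D0 (-0.47), which enters this difference.

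In *Tet2*-/-, 1 of 26 program genes, 4 of 32 regulators and 1 of 18 telomere genes passed, where 8.68% of all genes tested did. They were *Gm2022* (adjusted p = 0.0292), *Dppa2* (adjusted p = 0.00805), *Dppa4* (adjusted p = 0.0141), *Zfp42* (adjusted p = 0.0182) and *Rif1* (adjusted p = 0.0115), which is on both lists. In *Tet2*-/- *Zfp42* was also lower than in WT at D0 (-0.89), which enters this difference. Leaving out 1 library ended the call of *Gm2022* in 7 settings, *Zfp42* in 4, *Rif1* in 3, *Dppa4* in 2 and *Dppa2* in 1.

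Summed *Zscan4* was lower at D6 in every WT clone, with log2 ratios to D0 of -2.24 in clone 1, -3.50 in clone 2 and -4.64 in clone 3. It was higher at D6 in both TKO clones, with 2.55 in clone 1 and 0.86 in clone 2. The members were picked from these counts, so this difference was not tested. Groups of 2 or 3 clones are too small for a test of single outlying libraries.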

How the results depend on the processing

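Counts of members limit what these data show: most libraries at D6 held few *Zscan4* reads, groups have 2 or 3 clones of 1 line, and reads are shared between near-identical genes. No fold change of a family sum moved beyond the spread between clones under another scaling, no filter, summed lines, DESeq2 or the block, and 1 changed sign, *Tcstv* between days in DKO (0.05, and -0.013 with clone as replicate block). Program genes called by DESeq2 were 2 in DKO at D0, and at D6 were 1 in *Tet2*-/-, 6 in DKO and 3 in TKO; between days it called 1 in *Tet2*-/-, and for the difference of day effects 2 in *Tet2*-/-. Without the filter on low counts, 2 were called in DKO at D0 and 1 in TKO at D6. With clone as a replicate block, the calls between days were 9 for TKO, 10 for DKO, 2 for *Tet2*-/-, 12 for *Tet1*-/- and 19 for WT, and 15 for the difference of day effects in TKO; this paired fit moved only the regulators (4 from 1) and telomere genes (2 from 1) of that last contrast by over 1.5 times. Leaving out 1 library at a time, program counts ran at D0 from 0 to 12 in *Tet2*-/-, 0 to 8 in DKO and 2 to 13 in TKO, at D6 from 0 to 2 in *Tet2*-/- and 0 to 5 in TKO, between days from 0 to 3 in *Tet2*-/-, 3 to 9 in DKO and 2 to 17 in TKO, and for the difference of day effects from 0 to 2 in *Tet2*-/- and 1 to 17 in TKO. At D6 against WT, log2 fold changes ran from -0.61 to 0.73 for *Zscan4* in *Tet2*-/-, 0.61 to 3.13 for *Zscan4* and 0.40 to 3.91 for *Tcstv* in TKO, and 2.86 to 4.71 for *Tcstv* in DKO. Between days they ran from -1.84 to -0.49 for *Zscan4* and -1.21 to -0.0081 for *Tcstv* in *Tet2*-/-, -1.03 to 0.82 for *Tcstv* in DKO, and 0.38 to 2.91 for *Zscan4* and 0.039 to 3.55 for *Tcstv* in TKO. The cause was not tested beyond the library left out.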
